A study of Mus musculus with 4 samples.

Results

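MHC class I molecules carry short peptides from inside the cell to its surface, where CD8 T cells and natural killer cells read them. The 10 genes of this pathway followed here were set by name, and are 10 of the 23361 genes in the deposited table. They are the class I heavy chains H2-K1, H2-D1 and H2-T23, the light chain B2m, the peptide transporter subunits Tap1 and Tap2, the loading chaperone Tapbp (tapasin), the immunoproteasome subunits Psmb8 and Psmb9, and the class I transactivator Nlrc5. All 10 passed the filter on low counts, so each entered every test.

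The RNA came from cultured mammary tumour cells of the Chaos3 mouse, all of the C3HeB/FeJ strain. Chaos3 is an allele of the replicative helicase subunit Mcm4, and all 4 libraries share it. One group, labelled low in Arid1a, holds 2 libraries of the tumour line 23116 MT (UT-R1 and UT-R2). The other, labelled high in Arid1a, holds 1 library of each of 2 clones, AB-C1 and AB-C2, which carry an Arid1a lentiviral expression vector. Each clone is a single derivative of the line, and the table does not tell AB-C1 from AB-C2, so its libraries are called High 1 and High 2. The Low libraries are called Low 1 and Low 2. Arid1a encodes a subunit of the SWI/SNF chromatin remodelling complex, and the comparison asks how gene expression differs where it is added back.

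In the cell, the proteasome cuts proteins into peptides, and interferon-induced subunits such as Psmb8 and Psmb9 replace constitutive ones in the immunoproteasome. Tap1 and Tap2 pump the peptides into the endoplasmic reticulum, tapasin holds empty class I molecules at the pump, and a heavy chain with B2m carries the peptide out. Nlrc5 is recruited to the conserved SXY element of class I promoters by factors that bind DNA there, and interferon-gamma is the best known inducer of the whole set. In tumours, low class I expression is a known way to escape CD8 T cells. C3H strains carry the k haplotype of the mouse MHC, while the reference build mm10 comes from C57BL/6J, a b-haplotype strain. Polymorphic class I reads were therefore counted on a different allele in all 4 libraries.

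Of the 10 genes, 8 lie on chromosome 17, in and around the MHC. In mm10, with GENCODE M21 gene models, the chromosome 17 genes are Tapbp (chr17:33915899-33929292, plus strand), H2-K1 (chr17:33996017-34000347, minus), Psmb9 (chr17:34181987-34187764, minus), Tap1 (chr17:34187553-34197225, plus), Psmb8 (chr17:34197721-34201454, plus), Tap2 (chr17:34203527-34216321, plus), H2-D1 (chr17:35262730-35267499, plus) and H2-T23 (chr17:36029773-36032855, minus). All are protein-coding. B2m lies at chr2:122147686-122153083 (plus) and Nlrc5 at chr8:94434356-94527272 (plus). Tap1 and Psmb9 face away from each other and overlap by 212 bases at their starts. Zbtb22, on the same strand, overlaps Tapbp by 3422 bases. The antisense gene A930015D03Rik covers the 3083 bases of H2-T23, and Patl2, antisense and at no more than 0.467 CPM, spans B2m. The sources used here do not say whether the authors counted by strand.

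The reference promoter windows used here for the heavy chains and B2m hold different sets of the short elements named above. In the values below, H2-T23 rose between the groups, while H2-K1 and H2-D1 did not pass the test. Short stretches are therefore shown, and no link from them to expression was tested. The windows are from RefSeq (GRCm38.p6), 250 bases before to 50 after the annotated start, and 8 of the 10 genes matched one (none for Tap2 or Nlrc5). The first pair joins an NF-kB site core (GGGATTCCC) to an interferon response core (GAANNGAAA, here on the opposite strand). Both cores are in capitals, and the reference copies of the 2 genes differ at 1 of 29 bases. The stretch of H2-K1 is at chr17:34000429-34000457 (minus) and that of H2-D1 at chr17:35262924-35262952 (plus).
H2-K1: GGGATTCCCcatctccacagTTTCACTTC
H2-D1: GGGATTCCCcatctcctcagTTTCACTTC

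The next stretches run from the core of the X2 box (TGACG) to that of the Y box (ATTGG, the CCAAT box read on the other strand), both in capitals and 20 bases apart. These boxes belong to the SXY element. They lie at chr17:34000359-34000388 (minus) in H2-K1, chr17:35262993-35263022 (plus) in H2-D1 and chr2:122147609-122147638 (plus) in B2m.
H2-K1: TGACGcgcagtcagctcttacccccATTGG
H2-D1: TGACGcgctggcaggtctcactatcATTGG
B2m: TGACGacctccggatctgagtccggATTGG

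H2-T23 is shown for contrast: its window holds a CCAAT on the plus strand of the gene (capitals, chr17:36032736-36032765, minus strand of the chromosome).
H2-T23: gttttctaaaagCCAATcagcgacgcagag

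H2-T23 has no TGACG, GGGATTCCC or GAANNGAAA in its 300 bases. No match says only that these letters are not in this window. The first window listed for each gene was used. The stretches of H2-T23 and H2-D1 lie inside the GENCODE gene models given above, so their RefSeq starts lie downstream of the GENCODE ones. Windows set on the GENCODE starts were not searched, and the contrast with H2-T23 holds only for the windows used. Between H2-K1 and H2-D1, 23 of the 30 bases of the X2 to Y stretch were the same, and 13 of 30 between H2-K1 and B2m. Both strands were searched. TGACG followed after 20 bases by ATTGG was found in 31 of 32851 promoter windows (0.0944%), 3 of them those of H2-K1, H2-D1 and B2m. The spacing was read off these genes. Singly the letters are common: TGACG stood in 20.8% of windows and in 5 of the 8 matched genes, and CCAAT in 37.4% and in 7. GGGATTCCC stood in 0.353% of windows (H2-K1 and H2-D1) and GAANNGAAA in 7.52% (the same 2 genes). TTCNNNGAA, the core of a STAT site, stood in 8.30% of windows and, among these genes, in that of Psmb8. A match is a description of the reference, not a site shown to be used.

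The libraries held 13889858 (Low 1), 28110812 (Low 2), 16523077 (High 1) and 24307251 (High 2) fragments. Arid1a, the added gene, stood at 82.2 and 94.2 CPM (fragments scaled to a common depth by TMM) in the Low pair and at 49.8 and 58.3 in the libraries labelled High. The difference goes against the labels without passing the test between groups (log2 -0.71, edgeR adjusted p = 0.165). In the fit that keeps the High libraries apart, Arid1a fell in High 1 (log2 -0.82, adjusted p = 0.0362) and did not pass in High 2 (log2 -0.60, adjusted p = 0.167). Whether transcripts of the vector were counted as Arid1a is likewise not known, so every direction below is that of libraries labelled High. The 10 epithelial markers (keratins and adhesion genes, none at 0 in every library) summed to 2077 to 2990 CPM in the Low libraries, 2665 in High 1 and 6713 in High 2. In High 1, 7 of the 10 were higher than in the Low pair and 3 lower. Krt8 (647.0, 443.0 and 224.1 CPM in Low 1, Low 2 and High 1) and Krt18 (534.4, 359.0 and 184.1) were among the lower. The 9 fibroblast markers summed to 5207 to 5672 CPM in the Low libraries, 1211 in High 1 and 169.6 in High 2, and Lum was at 0 in all. Col1a1, Col3a1 and Postn were lower in both libraries labelled High, but 2 of the 7 tested rose in High 1: Dcn (4.19 and 5.45 CPM in the Low pair, 195.0 in High 1, 19.6 in High 2) and Pdgfra (79.3, 97.3, 234.4 and 26.6). Of 19 leukocyte markers, 7 were at 0 in every library, Cd3e, Cd8a, Ms4a1 and Nkg7 among them. Their sum was 10.02 and 10.06 CPM in the Low pair and 22.7 and 28.5 in the libraries labelled High, nearly all of it Csf1r. The 6 endothelial markers summed to at most 0.732 CPM in any library. In bulk RNA, fewer cells of a type and less RNA per cell cannot be told apart.

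Across the pathway, levels differed by orders of magnitude. B2m, Tapbp, Tap1 and Nlrc5 kept their rank among the 10 in all 4 libraries, while H2-T23 ranked 7 and 5 in the Low pair and 4 and 3 in the libraries labelled High. Levels between genes are compared in the authors' FPKM, which corrects for transcript length. It does not correct for k-haplotype reads or for stretches shared between genes, so the order among the heavy chains is uncertain. B2m led, with 604.5 and 608.6 FPKM in Low 1 and Low 2, 566.3 in High 1 and 279.9 in High 2. Tapbp followed with 97.4 to 130.7 FPKM over the 4 libraries and did not overlap either neighbour. H2-K1 (41.1 to 82.7), Psmb8 (22.98 to 84.9) and H2-T23 (17.7 to 62.3) overlapped one another. H2-D1 (12.9 to 30.1) and Tap2 (7.75 to 25.1) came next and overlapped each other and their neighbours. Psmb9 ranged from 6.67 to 11.2 FPKM and Tap1 from 2.03 to 3.87, so the transporter subunits differed in level, with Tap2 at 3.82 to 6.55 times Tap1. Nlrc5 was last in every library, at 0.711 to 0.866 FPKM in the Low pair and 0.173 to 0.205 in the libraries labelled High.

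**Figure D1:**
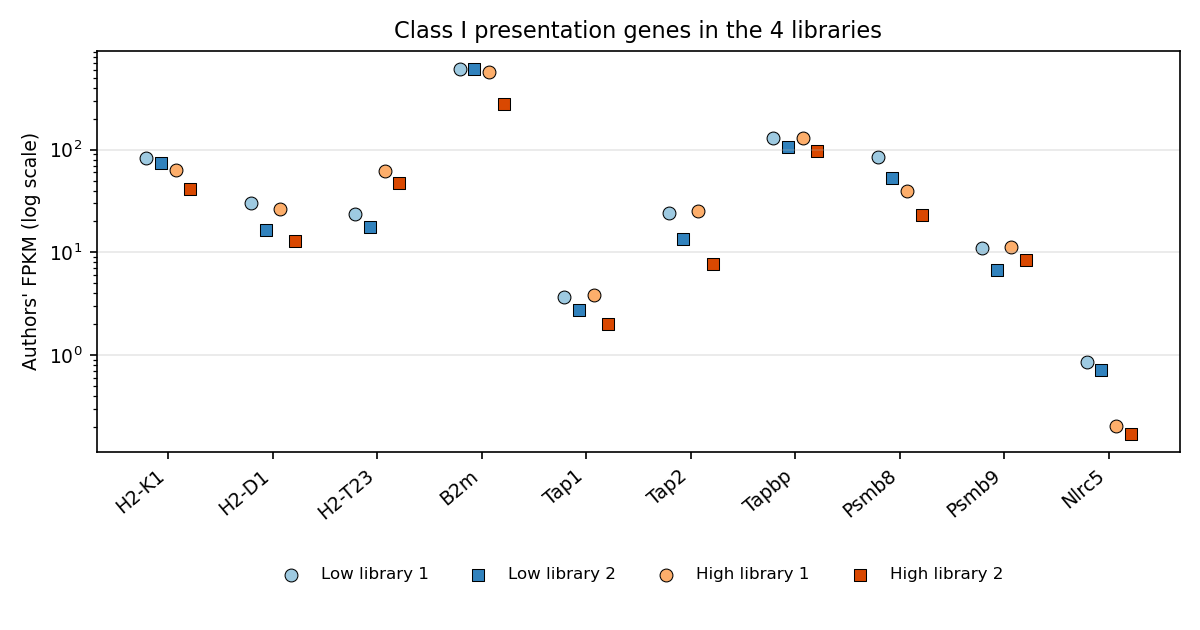
Authors' FPKM (log axis) of the 10 class I pathway genes, 1 point per library, with circles for library 1 and squares for library 2 of each group. H2-T23 lies higher and Nlrc5 lower in both libraries labelled High, and B2m sits at 279.9 in High 2 against 566.3 to 608.6 in the other libraries.

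Between the groups, H2-T23 rose and no other gene of the pathway passed the test. H2-T23 encodes the heavy chain of Qa-1, a little-polymorphic class I molecule that shows leader peptides of other class I chains to the CD94/NKG2 receptors of natural killer cells. It stood at 26.8 and 19.9 CPM in Low 1 and Low 2 and at 70.6 and 53.0 in High 1 and High 2. Both libraries labelled High were above both Low ones. The means were 23.4 ± 4.9 and 61.8 ± 12.4 (SD, n = 2 each), a 2.65-fold rise (log2 1.40 ± 0.28 SE, 95% interval 0.75 to 2.06, edgeR quasi-likelihood test, adjusted p = 0.0497). The adjusted p sits at the threshold: with RLE size factors it was 0.0503 at the same fold, and without Low 1 or Low 2 it was 0.632 or 0.799, with log2 changes of 1.63 and 1.19. In all, 1 of 10 genes rose, against 1.14% of the 12987 genes tested, and 0 of 10 fell, against 1.33%. At an unadjusted p under 0.05 there were 3 (H2-T23, Nlrc5 and Psmb8), against 2348 of the 12987 genes tested. DESeq2 called 2, H2-T23 and Nlrc5, against 1136 of the 12987. The median log2 change of the 10 was -0.21, against 0.03 over all genes.

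H2-T23 has close relatives, which limits how its fragments can be assigned. Of the 50-base stretches of its transcript, 28.8% also occur in transcripts of other genes, most often H2-T-ps (12.9%), against 14.3% for H2-D1 and 8.79% for H2-K1. The antisense gene A930015D03Rik stood at 3.45 and 3.99 CPM in the Low pair and 5.43 and 4.804 in the libraries labelled High, counts well under those assigned to H2-T23. Its share in the H2-T23 count was not tested. Whether reads of the k haplotype were placed on another copy was not tested either, and its value is uncertain to that extent.

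Nlrc5 was lower in both libraries labelled High without passing the group test. It had 80 and 132 fragments in the Low pair and 24 and 29 in the libraries labelled High, or 5.88 and 4.83 CPM against 1.40 and 1.18. The groups did not overlap. The difference was 4.13-fold (log2 -2.05 ± 0.55 SE, 95% interval -3.32 to -0.78, edgeR adjusted p = 0.108). DESeq2 called it. Nlrc5 was counted on the fewest fragments of the 10 genes. Leaving out a High library takes the spread between the High libraries out of the fit. Without High 1 or High 2 the log2 difference was -2.16 or -1.93. Without Low 1 or Low 2 the log2 difference was -1.90 or -2.19.

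Psmb8 is the immunoproteasome's chymotrypsin-like subunit (LMP7). It stood at 87.3 and 54.9 CPM in Low 1 and Low 2 and at 41.1 and 23.8 in High 1 and High 2. The groups did not overlap, but each pair was itself spread, 1.59-fold between the Low libraries and 1.73-fold between the High ones. The difference was 2.19-fold lower (log2 -1.13 ± 0.36 SE, edgeR adjusted p = 0.167). With no filter on low counts it passed (edgeR adjusted p = 0.0479). Without High 1 or High 2 the log2 difference was -1.57 or -0.80.

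The classical heavy chain H2-K1 and the light chain B2m also had both libraries labelled High below both Low ones, by less. H2-K1, a classical presenter to CD8 T cells, stood at 120.25 and 107.05 CPM against 93.1 and 60.1 (log2 -0.57, edgeR adjusted p = 0.322). B2m stood at 399.5 and 402.4 against 377.4 and 186.2 (log2 -0.51, adjusted p = 0.492). For B2m, High 2 lay 2.15-fold and High 1 1.06-fold under the Low pair in the fit that keeps the libraries apart. With High 1 left out, the log2 difference was -0.91 for H2-K1, -1.10 for B2m and -1.27 for Tap2. With High 2 left out it was -0.29, -0.09 and 0.42. In all, both libraries labelled High lay below both Low libraries for 4 of the 10 genes, against 25.1% of all genes tested, and above them for 1, against 25.9%.

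For the other 5 genes the groups overlapped. H2-D1, the second classical heavy chain measured here, stood at 46.4 and 25.4 CPM in the Low pair and 41.2 and 20.03 in the libraries labelled High. Tap2 stood at 55.8 and 31.2 against 58.3 and 17.9. For both, the difference within each pair exceeded that between the groups, whose log2 values were -0.23 and -0.19. Tap1 stood at 10.1 and 7.46 against 10.8 and 5.62, and Tapbp at 335.0 and 274.6 against 333.5 and 251.3. Psmb9 (LMP2) stood at 6.68 and 4.06 against 6.89 and 5.21 and was the only gene of these 5 with a positive difference (log2 0.18). Their edgeR adjusted p-values ran from 0.838 to 0.937. The small negative differences turned positive without Low 1 (log2 0.27 for H2-D1, 0.29 for Tap2, 0.14 for Tap1, 0.09 for Tapbp) and without High 2 (0.20, 0.42, 0.31 and 0.12), and that of Psmb9 turned negative without Low 2 (-0.15) or High 1 (-0.02). The 95% intervals allow sizeable differences in either direction, from log2 -1.92 to 1.54 for Tap2, the widest of the 5, and from -0.63 to 0.51 for Tapbp, the narrowest.

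The Low duplicates themselves differed at several of these genes. H2-D1 was 1.83-fold higher in Low 1 than in Low 2, and 6.30% of all tested genes lay at least as far apart. For Tap2 the ratio was 1.79 (6.84% of genes), for Psmb9 1.65 (9.61%) and for Psmb8 1.59 (11.4%). B2m was the most even, at a ratio of 0.993. Low 1 was the higher library for 9 of the 10 genes.

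Set apart, the libraries labelled High were unlike each other. High 1 differed from the Low pair mainly at H2-T23, which was 3.03-fold higher (log2 1.601 ± 0.30 SE, edgeR adjusted p = 2.42e-06), and Nlrc5, which was 3.79-fold lower (log2 -1.92 ± 0.59 SE, adjusted p = 0.0097). So 1 gene rose, against 10.7% of all genes tested, and 1 fell, against 8.19%. Both shares are near those over all genes, and the median log2 change of the 10 was 0.17. Psmb8 was 1.73-fold lower there, short of the threshold (adjusted p = 0.0577). Of the 10, 6 were higher than in the Low pair. This fit has 3 groups (the Low pair and each High library alone) and takes its spread from the Low pair. With DESeq2, Nlrc5 missed the threshold in High 1 (adjusted p = 0.0799).

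High 2 had lower values for most of the pathway. In it, 5 genes fell, against 8.15% of all genes tested. Psmb8 fell 2.98-fold (log2 -1.58 ± 0.32 SE, edgeR adjusted p = 2.04e-05) and Nlrc5 4.49-fold (log2 -2.17 ± 0.59 SE, adjusted p = 0.0023). Tap2 fell 2.41-fold (log2 -1.27), B2m 2.15-fold (log2 -1.11) and H2-K1 1.89-fold (log2 -0.92), with adjusted p of 0.0015, 0.0030 and 0.0183. H2-T23 rose 2.28-fold in the same library (log2 1.19 ± 0.30 SE, adjusted p = 0.0009), against 9.16% of genes. H2-D1 (log2 -0.83), Tap1 (-0.63), Tapbp (-0.28) and Psmb9 (-0.02) did not pass. The median of the 10 was -0.88, and the count of 6 called was the same with RLE size factors, DESeq2, limma-voom and no filter.

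**Figure D2:**
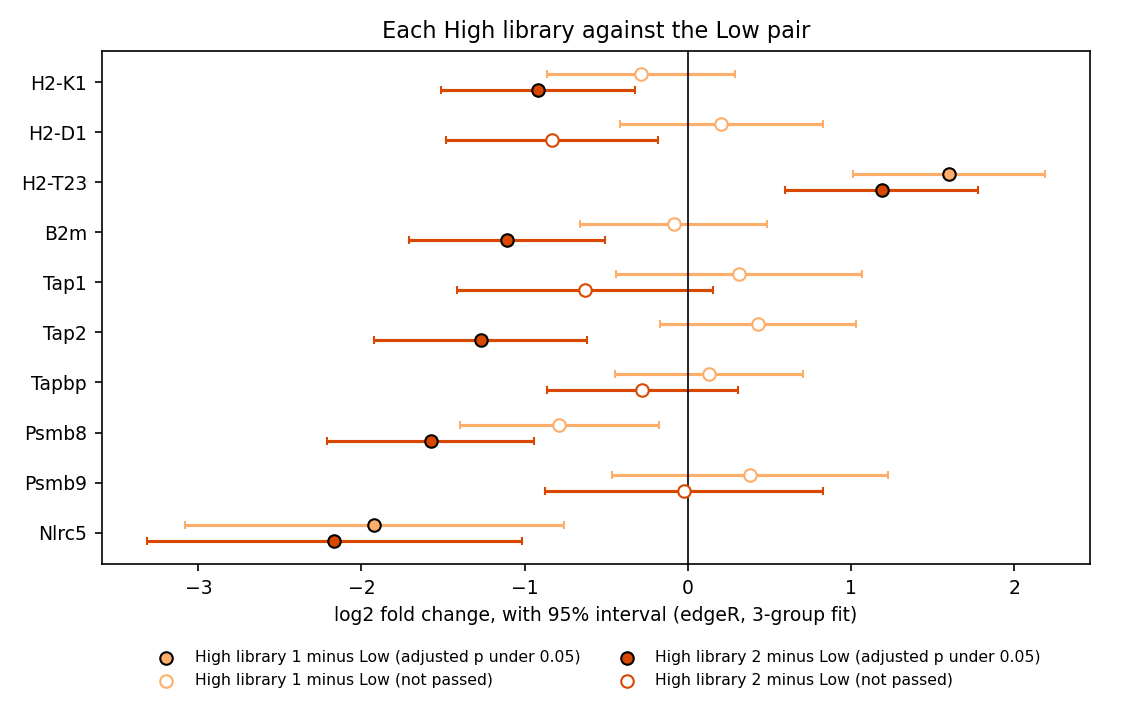
Log2 fold change of each gene in High 1 and in High 2 against the Low pair (edgeR, 3-group fit), with 95% intervals; filled points passed at an adjusted p under 0.05. H2-T23 is to the right and Nlrc5 to the left of 0 in both, while B2m, Tap2 and H2-K1 passed in High 2 and not in High 1.

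Set against each other, High 2 was lower than High 1 for 10 of 10 genes, where 48.8% of all genes tested were lower in High 2. The test of that difference was passed by 3: Tap2 (58.3 against 17.9 CPM, log2 -1.70 ± 0.37 SE, edgeR adjusted p = 0.0001), B2m (377.4 against 186.2, log2 -1.02 ± 0.34, adjusted p = 0.0289) and H2-D1 (41.2 against 20.03, log2 -1.04 ± 0.37, adjusted p = 0.0482). That is 3 of 10 that fell, against 6.47% of genes, and 0 that rose, against 4.46%. H2-D1 missed the threshold with DESeq2 (0.178) and with no filter (0.0650). The other 7 differed by log2 -0.94 (Tap1) to -0.25 (Nlrc5), short of the threshold. Each of these libraries is a single sample of a clone, so clone and library cannot be told apart. The fibroblast marker sum was 1211 CPM in High 1 and 169.6 in High 2, and the epithelial sum 2665 and 6713 CPM. Of the fibroblast markers, 6 of the 7 tested fell in High 2 against High 1 and 0 rose, and of the 10 epithelial markers 9 rose and 0 fell. Their part in the class I values was not tested.

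The shares of the 3 heavy chains restate the values above, where only H2-T23 passed the group test. A higher H2-T23 by itself lowers the shares of the others, so these are no further result. Reads of the k haplotype and stretches shared with other genes may be lost unequally between these genes. Levels set against each other are uncertain to that extent, which was not tested. H2-K1 held 60.5% and 68.3% of the summed FPKM of the 3 heavy chains in Low 1 and Low 2, and 41.7% and 40.7% in High 1 and High 2. H2-T23 held 17.5% and 16.4% in the Low pair and 40.9% and 46.5% in the libraries labelled High. H2-D1 held 21.998%, 15.2%, 17.4% and 12.8%. The sum itself, 136.7 and 107.7 FPKM against 152.3 and 100.8, overlapped between the groups. For each FPKM of B2m, the partner every one of these chains needs, there was 0.226 and 0.177 FPKM of heavy chain in the Low pair and 0.269 and 0.360 in the libraries labelled High. The ratio of H2-T23 to B2m was 0.0395 and 0.0291 in the Low pair and 0.110 and 0.167 in the others. That of H2-K1 to B2m overlapped (0.137 and 0.121 against 0.112 and 0.147). So did that of H2-D1 to B2m (0.0497 and 0.0270 against 0.0467 and 0.0460). No test was made of these ratios, since the smallest p that exact permutation allows with 2 libraries a group is 0.33.

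The ratios of the immunoproteasome subunits did not all go the same way. Psmb8, Psmb9 and Psmb10 take the places of the constitutive catalytic subunits Psmb5, Psmb6 and Psmb7. The FPKM ratio of Psmb8 to Psmb5 was 0.345 and 0.370 in Low 1 and Low 2, 0.265 in High 1 and 0.144 in High 2. Both libraries labelled High were below both Low ones. The ratio of Psmb9 to Psmb6 was 0.0539, 0.0417, 0.0760 and 0.0476, and overlapped. The ratio of Psmb10 to Psmb7 was 0.140, 0.0783, 0.156 and 0.210, with both libraries labelled High above both Low ones. Psmb8 was at 7.73 and 8.004 times the FPKM of Psmb9 in the Low pair and at 3.53 and 2.70 times in the libraries labelled High. In every library the constitutive partner was the more abundant of each pair.

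**Figure D3:**
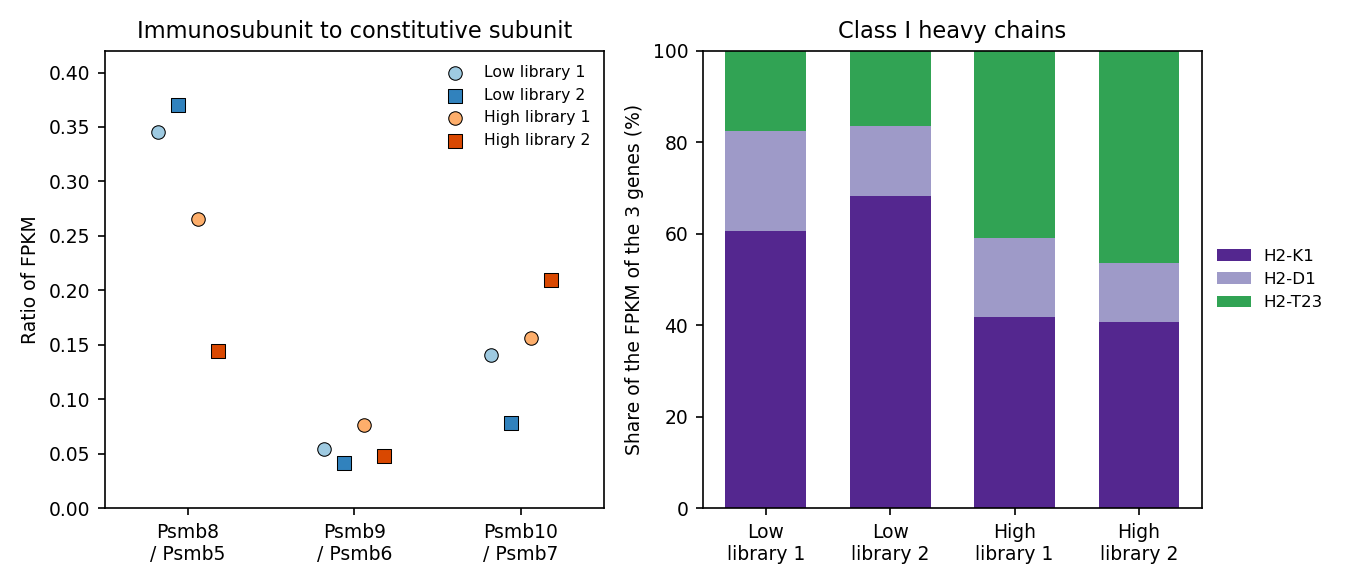
Left, FPKM ratio of each immunosubunit to the constitutive subunit it replaces, 1 point per library; right, share of the summed FPKM of H2-K1, H2-D1 and H2-T23 in each library. Psmb8 to Psmb5 is 0.345 to 0.370 in the Low pair and 0.144 to 0.265 in the libraries labelled High, and the H2-T23 share is 16.4% to 17.5% against 40.9% to 46.5%.

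The rest of the proteasome did not pass the group test. Psmb5 (165.6 and 97.3 CPM against 101.5 and 108.0), Psmb6 (171.1 and 134.5 against 125.2 and 151.2) and Psmb7 (313.7 and 375.0 against 269.7 and 243.3) were each lower on average, with 0 of 3 passing and a median log2 difference of -0.33. Of the other 11 subunits of the 20S core, 0 passed and 9 were lower (median -0.33). Psma7 had the smallest p of them, at log2 -0.70 (edgeR adjusted p = 0.165), and fell in High 1 (log2 -0.82, adjusted p = 0.0443). Among the proteasome activator genes with Psmb10 and the assembly factor Pomp, 0 of 5 passed and all 5 were higher on average (median 0.13). Psme1, a subunit of the interferon-induced activator PA28, stood at 101.0 and 78.2 CPM against 116.4 and 106.5 (log2 0.31, adjusted p = 0.521). Psmb10 stood at 61.3 and 40.9 against 58.6 and 71.1 (log2 0.35, adjusted p = 0.555).

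Of the 24 other class I and class I-like heavy chain genes in the table, 12 were tested, 5 were at 0 in every library, and 0 passed between groups. H2-T9, another heavy chain of the nonclassical T region, had the smallest p (20.6 and 20.5 CPM against 35.5 and 28.4, log2 0.64, edgeR adjusted p = 0.268). H2-Q4 stood at 32.1 and 25.4 against 22.6 and 19.1 (log2 -0.46, adjusted p = 0.440). Near-identical copies make values of the H2-Q and H2-T genes uncertain. In High 2 against the Low pair, 3 of the 12 fell, against 8.15% of all genes tested, and 1 rose, against 9.16%. H2-T22 stood at 20.05 and 13.87 CPM in the Low libraries, 18.8 in High 1 and 7.78 in High 2, where it fell (log2 -1.12, adjusted p = 0.0196). The other 2 that fell, and were named after their values were seen, were Mr1, which presents vitamin B metabolites (10.7, 10.5, 11.9 and 1.71 CPM in Low 1, Low 2, High 1 and High 2), and Fcgrt, the neonatal Fc receptor (3.09, 2.56, 5.26 and 0.733). Both pair with B2m. Procr, the endothelial protein C receptor, which has a class I fold but binds no B2m, rose there (log2 1.77, adjusted p = 3.92e-05). H2-M3, also singled out afterwards as it holds the same X2 to Y spacing, stood at 7.49, 4.98, 8.53 and 6.51 CPM (group log2 0.27, adjusted p = 0.791).

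Among the 12 peptide loading and trimming genes, 0 passed between groups, and 4 were higher and 8 lower. Tapbpl (TAPBPR), a tapasin relative that edits peptides away from the transporter, stood at 18.7 and 10.9 CPM in the Low libraries, 20.9 in High 1 and 39.9 in High 2. Its group difference did not pass (log2 1.04, edgeR adjusted p = 0.257), and it rose in High 2 (log2 1.45, adjusted p = 8.82e-05). Tapasin itself was log2 -0.28 in that library. Over all genes tested, 8.15% fell and 9.16% rose in High 2 against the Low pair. In High 2, 2 chaperones fell: Pdia3 (ERp57, the loading complex's disulfide isomerase, 866.1 and 991.6 against 492.6 CPM, log2 -0.92, adjusted p = 0.0130) and Hspa5 (BiP, 1009 and 1077 against 512.4, log2 -1.03, adjusted p = 0.0040). High 2 was under High 1 for 10 of these 12 genes, with 0 called.

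Upstream of the pathway, Jak2 was the one gene of the 19 interferon and NF-kB regulators to pass between groups. Jak2 is a kinase that signals from the interferon-gamma receptor. It stood at 45.0 and 58.4 CPM in Low 1 and Low 2 and at 132.1 and 131.5 in High 1 and High 2, a 2.55-fold rise (log2 1.35 ± 0.23 SE, edgeR adjusted p = 0.0308). Without Low 1 or Low 2 the adjusted p was 0.692 or 0.565, with log2 changes of 1.17 and 1.54. Ifngr2 and Ifnar2, each 1 chain of a receptor, were lower in both libraries labelled High, while their partner chains Ifngr1 and Ifnar1 overlapped between the groups. Ifngr2, of the interferon-gamma receptor, stood at 75.9 and 77.6 CPM against 40.9 and 36.4 (log2 -0.99, adjusted p = 0.0717). Ifnar2, of the type I interferon receptor, stood at 42.2 and 42.2 against 21.4 and 14.7 (log2 -1.23, adjusted p = 0.0769). In the fit with the High libraries apart, both fell in each of them.

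Irf9 and Stat2, transcription factors of the type I interferon response, separated High 1 from High 2 and were named after their values were seen. Irf9 stood at 18.0 and 17.3 CPM in Low 1 and Low 2, 42.2 in High 1 and 7.82 in High 2. Stat2 stood at 26.5, 24.8, 39.3 and 13.6 CPM in the same order. Both fell in High 2 against High 1, by log2 2.43 and 1.53 (edgeR adjusted p = 1.32e-07 and 0.0014), and 0 of 19 regulators rose. Over all genes tested, 6.47% fell and 4.46% rose in High 2 against High 1. Irf1, a factor through which interferon-gamma acts on class I promoters and also singled out afterwards, stood at 177.7, 172.4, 141.3 and 146.3 CPM and passed in no comparison. The NF-kB genes Rela (62.8 and 44.1 against 35.7 and 39.5 CPM) and Nfkb2 (111.0 and 84.1 against 129.2 and 170.0) did not pass between groups (adjusted p = 0.372 and 0.260).

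**Figure D4:**
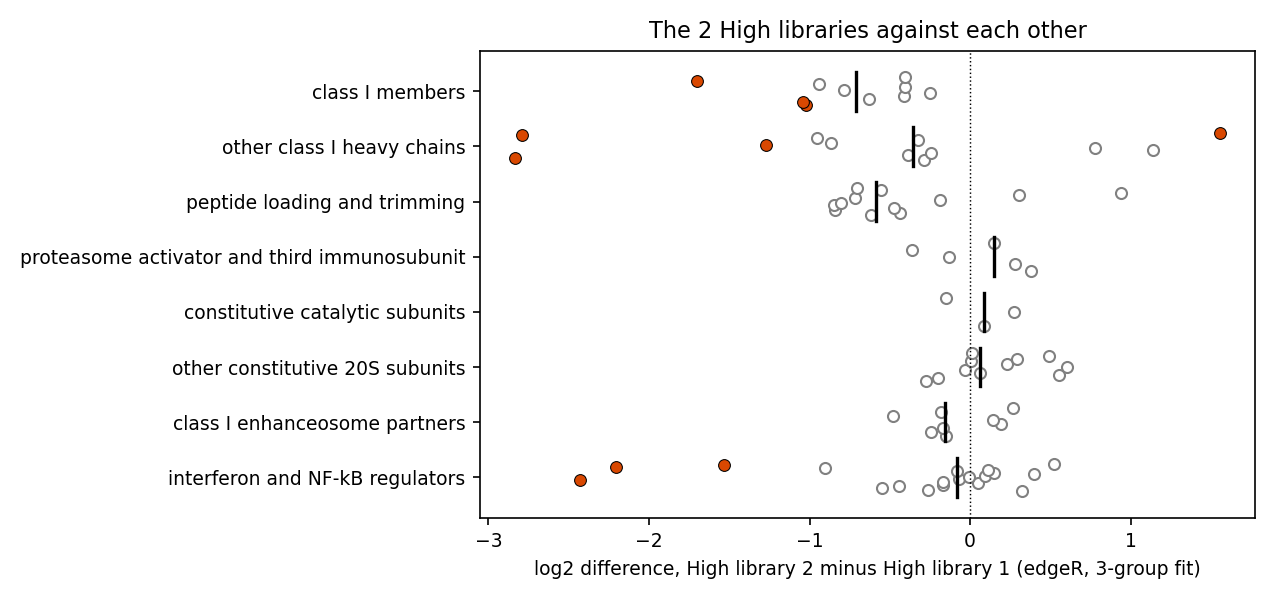
Log2 difference of High 2 minus High 1 for each tested gene of the class I lists (edgeR, 3-group fit), with filled points for an adjusted p under 0.05 and a bar at each list's median. All 10 pathway genes lie left of 0 (median -0.71), and Irf9 and Stat2 are filled among the regulators.

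The factors that seat Nlrc5 on class I promoters belong to the RFX, NF-Y and CREB/ATF families. Of 8 tested genes, 0 passed in any of the 4 comparisons (edgeR), and 1 between groups had an unadjusted p under 0.05. Rfx5 stood at 14.9 and 16.4 CPM against 25.7 and 18.4 (log2 0.49, edgeR adjusted p = 0.447). Nfya, which binds CCAAT boxes, stood at 89.6 and 92.3 against 72.0 and 64.2 (log2 -0.42, adjusted p = 0.360). Atf1 had the smallest p, at log2 -0.67 (adjusted p = 0.169).

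Class II presentation, the pathway of professional antigen-presenting cells, was nearly silent. Of its 11 genes in the table, 6 were at 0 in every library, the chains H2-Aa, H2-Ab1 and H2-Eb1 among them, and the whole list summed to 5.54 to 11.1 CPM. H2-DMa stood at 3.82 and 3.95 CPM in the Low libraries, 11.1 in High 1 and 4.84 in High 2 (group log2 1.03, edgeR adjusted p = 0.358). The other 2 tested were lower in both libraries labelled High without passing between groups (adjusted p = 0.248 and 0.224): H2-DMb1 had 20 and 45 fragments in the Low pair, 0 in High 1 and 9 in High 2, and H2-DMb2 had 8, 16, 0 and 2. Among the ligands that natural killer and T cells read alongside class I, 15 were in the table, 7 were tested and 0 passed between groups. Of the 7, 3 were higher and 4 lower. H60c had the smallest p, at 0.294 and 0.329 CPM in the Low pair, 2.86 in High 1 and 0.977 in High 2. It was counted on few fragments (4, 9, 49 and 24 in the same order). Cd274 (PD-L1) stood at 2.204 and 3.29 CPM against 4.44 and 3.13 (adjusted p = 0.718). Pvr, a ligand of DNAM-1, stood at 24.7 and 17.0 against 28.9 and 20.4 (adjusted p = 0.748). Ulbp1, a ligand of NKG2D, stood at 10.9 and 11.96 against 10.7 and 10.1 (adjusted p = 0.873). Raet1 genes are near-identical copies of another NKG2D ligand and are left without a value, since fragments may move between them.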

How the data were processed

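RNA was measured in 4 libraries of cultured mouse mammary tumour cells, prepared, per the labels' protocols, from 500 ng of total RNA with a directional kit. The submitters' processing notes name cutadapt 1.5, TopHat2 2.0.13, Cuffdiff 2.2.1 and the build mm10. Neither annotation nor strand setting is given in the sources used here. In the table, the authors deposited estimated counts of fragments per gene and library, per the file headers, and FPKM scaled for depth and transcript length. Of the counts, 99.18% were whole within 1e-06, and all were rounded. None of the pathway genes carried a failed status (11 genes did).

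Libraries were grouped by the labels. The table's replicate numbers only name libraries. The labels do not say that the Low libraries are separate cultures, so p-values reflect only how far these samples spread, and part of that may be technical. Library totals ran from 13889858 to 28110812 fragments. The test was edgeR 4.0.16 (quasi-likelihood, TMM, robust, filter with a minimum count of 10, R 4.3.3), two-sided, with Benjamini-Hochberg adjustment over 12987 genes at 0.05. One fit had 2 groups (2 residual degrees of freedom, biological coefficient of variation 32.2%). A second had 3 groups (1 residual degree of freedom, 17.2%), in which a lone High library is assumed to vary like the Low pair, so its p-values do not cover spread within a clone. Alternatives were RLE size factors, DESeq2 1.42.0, limma 3.58.1 (voom, and log2(FPKM + 1) or log2(FPKM + 0.1)), no filter, a block on the library number and each library left out. Scripts were tested on simulated data.

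The pathway genes and lists were chosen with earlier results of these data known. Named genes were all 10 pathway genes and, of each list, those that passed between groups and otherwise up to 6 with the smallest p. Not all of the latter are printed, and exceptions are stated. Overlaps and shared stretches of 50 bases used GENCODE M21, and promoter windows used RefSeq. Marker sums are of TMM-normalised CPM.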

Additional observations from a re-analysis of the deposited data

Results flagged for a closer look

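Of the pathway genes, 3 differed between the 2 libraries labelled High, by a test of that difference itself (edgeR, 3-group fit, High 2 minus High 1): Tap2 by log2 -1.70, H2-D1 by log2 -1.04 and B2m by log2 -1.02. Against the Low pair, Tap2 was at log2 0.43 in High 1 and -1.27 in High 2, H2-D1 at 0.21 and -0.83, and B2m at -0.09 and -1.11. High 1 was the higher library for all 3.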

How the results depend on the processing

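Between groups, 1 pathway gene was called, and 1 with limma-voom, log2(FPKM + 1), log2(FPKM + 0.1) and the replicate block; it was 0 with RLE size factors, 2 with DESeq2 and 2 with no filter. Leaving out a library gave 0 to 6. Among all genes, 321 were called, against 1136 with DESeq2, 814 with no filter, 2193 without High 1, 2475 without High 2 and 0 without either Low library (970 and 800 at an unadjusted p under 0.05). H2-T23 kept its call in 8 of 12 alternatives (adjusted p 2.55e-06 to 0.799) and Jak2 in 9 (2.21e-05 to 0.692). Directions reversed for genes that had not passed: leaving out a library moved H2-D1 between -0.83 and 0.27 (0.20 without High 2), Tap1 between -0.63 and 0.31 (0.14 without Low 1), Tap2 between -1.27 and 0.42 (0.29 without Low 1), Tapbp between -0.27 and 0.12 (0.09 without Low 1) and Psmb9 between -0.15 and 0.57 (-0.02 without High 1), and Psmb9 in High 2 was 0.067 with limma-voom. In High 1, DESeq2 called 1 gene against 2. The cause was not tested. Same-numbered libraries did not deviate together (correlation -0.14), so the block is an arbitrary pairing, under which 469 genes were called; the crossed pairing, added after seeing the data, gave 94 genes and 0 of the 10. The High mean over the Low mean of each immunosubunit ratio was 0.572, 1.29 and 1.67 for Psmb8, Psmb9 and Psmb10 (FPKM). Fragments gave the same values. That was nearly fixed in advance, since depth cancels within a library and transcript length between groups. Nlrc5, at 24 and 29 fragments in the libraries labelled High, is the gene most limited by depth.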
